A study of Mus musculus with 6 samples.

Results

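A set of 36 germline and gamete genes was followed in medullary thymic epithelial cells (mTECs), taken as every row of the deposited tables whose gene name equals 1 of the 36 symbols, with the rows of a symbol summed. All 36 symbols were found, among 20443 genes in all. They were ordered by the stage of germ cell life they serve: germ cell identity (3 genes), meiotic chromosomes and germ cell bridges (9), the piRNA pathway (6), sperm chromatin (4), sperm tail and metabolism (5), sperm kinases, acrosome and surface (6) and the zona pellucida of the egg (3). None of these stages exists in the thymus, so the genes are read here as tissue-restricted self-antigens.

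RNA was sequenced from sorted mTECs of C57BL/6 mice aged 4 weeks. The 3 controls (Con_253, Con_261, Con_264) were Jmjd3fl/fl mice, and the 3 Jmjd3-deficient mice (cKO_262, cKO_263, cKO_265) were Jmjd3fl/fl-Foxn1-cre. Both groups therefore carry the floxed alleles, and only the deficient group carries Cre, driven by the promoter of Foxn1, the transcription factor of thymic epithelium. The loss of Jmjd3 and the presence of Cre cannot be told apart. Jmjd3 (gene symbol Kdm6b) removes methyl groups from histone H3 at a lysine whose methylation marks silenced genes. By the numbers in their titles, the libraries come from 6 different mice, and whether any were littermates is not stated. Series of 3 values for a group below follow the order Con_253, Con_261, Con_264 or cKO_262, cKO_263, cKO_265.

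Medullary thymic epithelium transcribes genes of many other organs and shows their products to developing T cells, so that cells reactive to self are removed or turned into regulatory cells. Aire and Fezf2 are transcriptional regulators needed for much of this. Antigens of the germ line are a textbook case for such tolerance, since sperm and egg products appear in the body at sites or ages that T cells do not see otherwise. In most other somatic cells, germline genes are kept silent by promoter DNA methylation and by a Polycomb complex with the E-box binding proteins Max and Mga and with E2f6.

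Kdm6b itself was at 18.1, 17.1 and 9.998 FPKM (fragments counted per unit of transcript length and of mapped total) in controls and at 11.1, 11.6 and 8.67 FPKM in deficient libraries, so the groups overlapped. Loss of some exons need not lower a value taken over a whole gene, so this does not measure the deletion. All 14 mTEC markers were measured above the filter, with a summed level of 16964 to 19060 FPKM in controls and 15754 to 19514 FPKM in deficient libraries. Most of this sum was Cd74, H2-Aa and H2-Ab1, with means of 8722, 4171 and 2174 FPKM in controls and 7952, 4057 and 1985 FPKM in deficient libraries. The sum thus says little about the other markers. Con_253 alone held Y-linked RNA (Eif2s3y 7.88 FPKM, at most 0.0409 FPKM elsewhere). The library cKO_265 stood apart on the first principal component, which held 42.8% of the variance, at 53.0 against -22.7 to 7.42 for the other 5. The summed FPKM of a library was 503908 ± 41114 (SD, n = 3) in controls and 619346 ± 31808 (SD, n = 3) in deficient libraries, and since FPKM hold no counts the sequencing depth is unknown.

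Most of these genes were near the floor of the tables. The median member had a mean of 0.549 FPKM over the 6 libraries, against 3.58 FPKM for the median of all 20443 genes, and 28 of the 36 lay below the middle of all genes by mean level. A total of 10 members were at or above 1 FPKM in every library, namely Pou5f1, Spo11, Tex14, Tnp2, Prm1, Odf2, Ldhc, Fabp9, Zp2 and Zp3. In contrast, 18 members reached 1 FPKM in no library, and 9 were listed at 0 in at least 1. A value listed at 0 may be a failed estimate. The levels were highest for Fabp9, a fatty acid binding protein of sperm (mean 28.2 FPKM), followed by Odf2 (15.6 FPKM) and the zona protein gene Zp2 (13.2 FPKM). These 3 genes made up 48.3% to 63.3% of the summed FPKM of all members in a library.

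**Figure D1:**
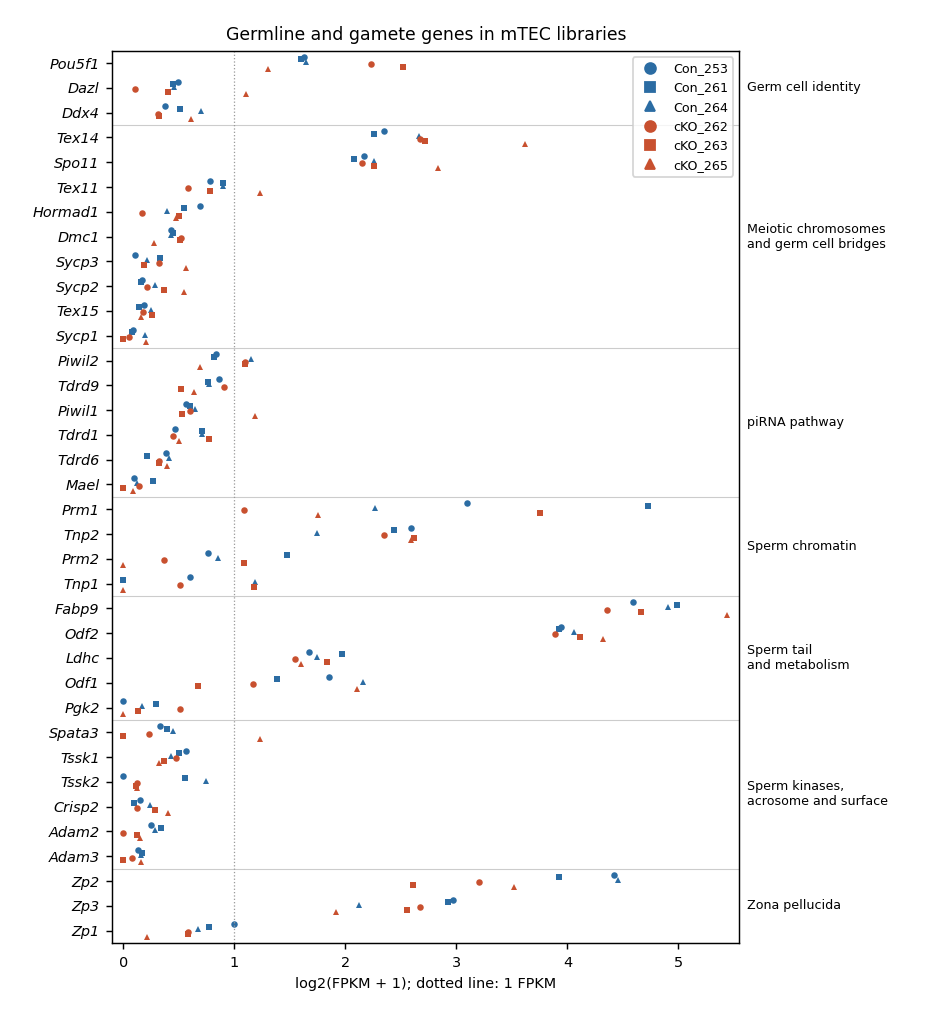
Level of each of the 36 genes in each library as log2(FPKM + 1) on the horizontal axis, grouped by stage and ordered by mean level within a stage, with controls in blue and Jmjd3-deficient libraries in red. The points of most genes lie left of the dotted line at 1 FPKM, while Zp2 shows 3 blue points to the right of all 3 red points.

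The genes were also described by the sequence at their promoters. RefSeq start sites of build GRCm38.p6 gave a window from 250 bases before to 50 bases after the start for 25 of the 36 members. The 11 others, Spo11, Tex11, Tex15, Piwil2, Tdrd6, Odf1, Fabp9, Adam2, Adam3, Zp1 and Zp2, have no entry in that table. The E-box CACGTG, which reads the same on both strands, occurred in 10 of the 25 windows (40%) and in 9.48% of the windows of 15028 genes of the tables. Of the 10, 8 belong to the 13 genes of identity, meiosis and the piRNA pathway, and the 2 others are Crisp2 and Zp3 among 12 sperm and zona genes. The early genes Dazl, Pou5f1, Sycp2, Dmc1 and Tex14 lack it in their windows. The 8 stretches are shown because the E-box is, of the motifs searched, the one found in most of the early genes. Capitals mark the E-box, and each line runs 5′ to 3′ on the gene's own strand, at chr13:112652311-112652366 (minus strand) for Ddx4, chr3:102936162-102936221 (minus) for Sycp1, chr10:88459496-88459555 (plus) for Sycp3, chr3:95559593-95559652 (plus) for Hormad1, chr1:166238935-166238994 (minus) for Mael, chr5:128736040-128736099 (plus) for Piwil1, chr19:56826171-56826208 (plus) for Tdrd1 and chr12:111971367-111971426 (plus) for Tdrd9.
Ddx4: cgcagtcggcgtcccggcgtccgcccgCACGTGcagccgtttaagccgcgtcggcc
Sycp1: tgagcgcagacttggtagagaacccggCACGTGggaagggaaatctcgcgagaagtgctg
Sycp3: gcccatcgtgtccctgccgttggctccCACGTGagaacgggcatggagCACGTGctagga
Hormad1: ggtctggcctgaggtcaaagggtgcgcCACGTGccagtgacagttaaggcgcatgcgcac
Mael: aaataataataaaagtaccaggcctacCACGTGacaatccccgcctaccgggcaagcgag
Piwil1: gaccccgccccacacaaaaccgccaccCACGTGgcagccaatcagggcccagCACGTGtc
Tdrd1: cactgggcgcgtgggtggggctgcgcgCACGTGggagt
Tdrd9: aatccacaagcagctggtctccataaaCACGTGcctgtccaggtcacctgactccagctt

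Sycp3 and Piwil1 hold the E-box 2 times within the stretch shown. Counted from the start, the first base of the E-box is at -11 in Tdrd1, at -29 in Ddx4 and at -223 in Mael. The E2F motif TCCCGC, on either strand, occurred in 9 windows (36%) against 30.2% of all windows, 7 of them in early genes. Both motifs together occurred in Ddx4, Sycp1, Sycp3, Hormad1, Mael and Zp3 (24% against 3.87%). The cAMP response element TGACGTCA was in none of the 25 windows against 2.68% of all, and TATAAA was in Tdrd1, Prm2 and Crisp2 (12% against 14.4%). The early windows held a median of 20 CpG dinucleotides (10 to 38), the sperm and zona windows a median of 5 (1 to 43, or 1 to 11 without Odf2) and all windows a median of 16. Members with the E-box had a median level of 0.389 FPKM and those without it 0.579 FPKM, with ranges that overlapped (0.0733 to 4.96 FPKM and 0.145 to 15.6 FPKM). These are matches of letters in 1 window per gene, not sites shown to be bound in mTECs.

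**Figure D2:**
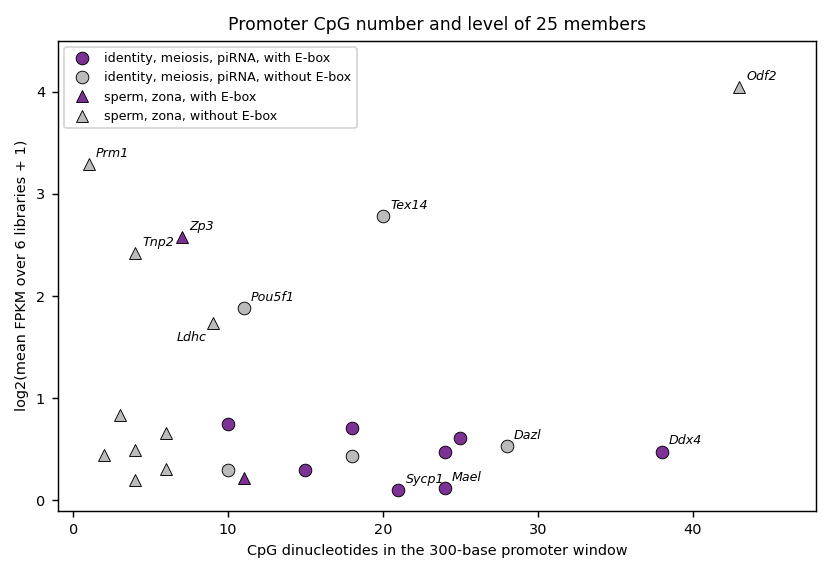
CpG number in the 300-base promoter window (horizontal axis) against log2(mean FPKM + 1) over the 6 libraries (vertical axis) for 25 members, with circles for identity, meiosis and piRNA genes, triangles for sperm and zona genes and purple for windows with the E-box. Circles lie at 10 to 38 CpG and most triangles at 1 to 11, with Odf2 at 43, and 8 of the 10 purple points are circles.

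Between control and deficient mTECs, no member passed the test. Genes that averaged 0.5 FPKM or more were compared on log2(FPKM + 1) with limma, which called 12 of 15720 genes at an adjusted p under 0.05 (0.0763%). Of the 36 members, 19 entered the test and 0 were called. The other 17, with means of 0.0733 to 0.447 FPKM and no value above 1.35 FPKM, were not tested. Of the 19 tested members, 8 had a higher and 11 a lower mean log2 level in deficient libraries. The median of their log2 fold changes (deficient minus control, log2(FPKM + 1) scale) was -0.03 against -0.04 for all tested genes. With log2 values centred on the median of each library, both medians were 0.05. Of these 19, 1 gene, Zp2, had an unadjusted limma p under 0.05, where 14.6% of all tested genes did. The libraries of the groups did not overlap for 1 tested member that was higher in deficient libraries, Tex14, where 9.59% of tested genes did this, and for 2 that were lower, Zp1 and Zp2, where 11.9% did. None of these counts exceeds the share over all tested genes.

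The 95% interval of the fitted log2 fold change contained 0 for 18 of the 19 tested members. It ran from -0.42 to 0.47 for Piwil2 and from -2.88 to 0.55 for Prm1. On this scale the same fold of FPKM gives a smaller value in a low gene such as Piwil2 than in a high one. The within-group SD was larger for these genes than for others, with a median of 0.336 on the log2 scale against 0.234 over all tested genes. In bulk samples, fewer cells that make a transcript and less of it per cell cannot be told apart.

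**Figure D3:**
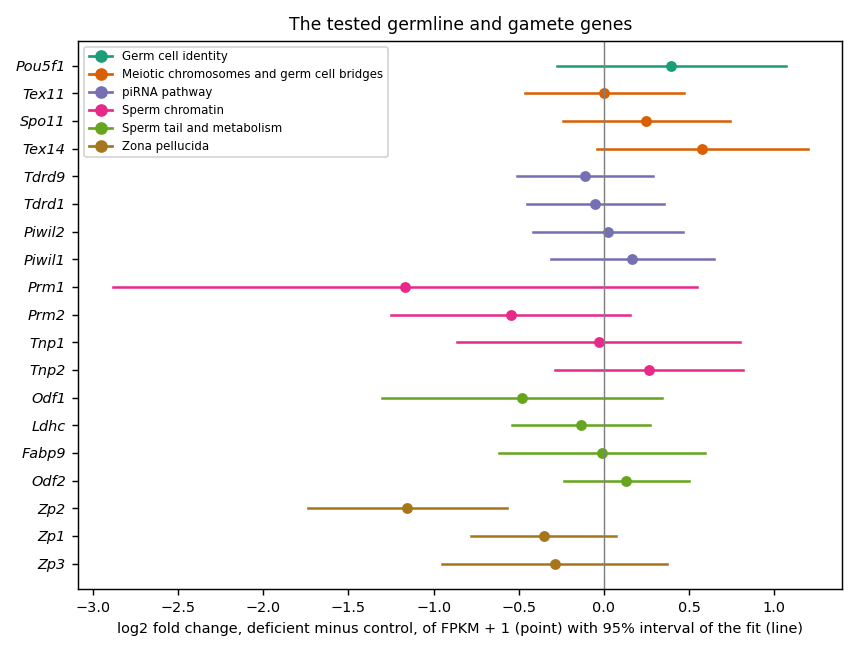
Log2 fold change, deficient minus control, of FPKM + 1 (points) with the 95% interval of the limma fit (lines) for the 19 tested members, coloured by stage. The line of Zp2 lies wholly left of 0, those of the other 18 cross it, and the line of Prm1 is the longest.

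Among the identity genes, Pou5f1, the transcription factor Oct4 of pluripotent and primordial germ cells, was at 2.09, 2.03 and 2.13 FPKM in controls. It was at 3.70, 4.72 and 1.47 FPKM in deficient libraries. The controls lay close together, and the deficient libraries fell on both sides of them (log2 fold change 0.39 with SE 0.29, limma adjusted p = 0.580). The log2 fold change of Pou5f1 was 0.75 without cKO_265 (limma adjusted p = 0.161) and 0.14 without cKO_263 (limma adjusted p = 0.872). An antisense transcript shares 317 exon bases with Pou5f1 in the GENCODE annotation of this build, and without stated strand the reads of such pairs cannot be told apart. Ddx4, a helicase of germ granules, and Dazl, an RNA-binding protein of germ cells, averaged 0.392 and 0.447 FPKM and were not tested. Dazl was tight in controls at 0.365 to 0.408 FPKM and ran from 0.0761 to 1.14 FPKM in deficient libraries.

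Of the 9 meiotic genes, only Spo11, Tex11 and Tex14 passed the filter. Tex14, a protein of the intercellular bridges that join dividing germ cells, was at 4.08, 3.78 and 5.34 FPKM in controls. The deficient libraries had 5.36, 5.58 and 11.2 FPKM. The groups touch without overlapping, since the highest control and the lowest deficient library differ only in the second decimal, and cKO_265 is far above the rest (log2 fold change 0.58 with SE 0.27, limma adjusted p = 0.369). Without cKO_265 the log2 fold change of Tex14 was 0.27. Tex14 spans chr11:87405065-87555823 on the plus strand. Its neighbours there gave no common direction, with log2 fold changes of 0.08 for Rad51c, which begins 569 bases away, -0.01 for Mtmr4 and 0.60 for Hsf5, a heat shock factor family member known from testis. Hsf5 was at 0.978, 0.60 and 0.818 FPKM in controls and at 0.506, 2.59 and 2.69 FPKM in deficient libraries (limma adjusted p = 0.454). The 250 bases before the start of Tex14 (chr11:87404815-87405064, plus strand) are shown because it is the 1 early gene with an E2F match and a level above 5 FPKM, and the capitals mark TCCCGC.
Tex14: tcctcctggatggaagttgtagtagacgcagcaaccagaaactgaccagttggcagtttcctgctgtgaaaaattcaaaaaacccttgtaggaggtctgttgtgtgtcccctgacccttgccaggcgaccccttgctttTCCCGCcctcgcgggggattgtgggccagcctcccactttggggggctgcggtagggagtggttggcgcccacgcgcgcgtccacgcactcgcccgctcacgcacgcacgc

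Spo11, the enzyme that cuts DNA to start meiotic recombination, was at 3.49, 3.22 and 3.79 FPKM in controls and at 3.44, 3.79 and 6.15 FPKM in deficient libraries. All libraries but cKO_265 lay between 3.22 and 3.79 FPKM (log2 fold change 0.25 with SE 0.21, limma adjusted p = 0.636). Tex11, an X-linked protein of meiotic crossovers, had group means of 0.815 and 0.850 FPKM (log2 fold change 0.00). Sycp1, Sycp2 and Sycp3, whose proteins help to zip paired chromosomes together, stayed under 0.7 FPKM in every library, as did Hormad1 and Dmc1. Their means were 0.0733 FPKM for Sycp1, 0.227 FPKM for both Sycp2 and Sycp3, 0.386 FPKM for the axis protein Hormad1 and 0.352 FPKM for the recombinase Dmc1. Tex15, needed for silencing and repair in male germ cells, averaged 0.146 FPKM. Spo11 was thus well above the structural genes of the same process on this per-length scale. For Sycp3, 660 of 1264 exon bases are shared with Chpt1 on the other strand.

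Some of these loci are split into several rows, and the rows exchanged their values between libraries. Tex14 has 2 rows, of which the first held 4.07 and 3.78 FPKM in Con_253 and Con_261 but 0.00736 FPKM in Con_264, where the second held 5.33 FPKM. The first row of Odf2 held 0.00929 FPKM in Con_253 and 15.5 FPKM in cKO_263, while its row 4 held 14.2 and 0.221 FPKM there. Sums over the rows varied far less than the rows, so sums are used throughout. Taken by its highest row alone, Odf2 would have a log2 fold change of -1.25 in place of 0.13.

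The piRNA pathway makes small RNAs that silence transposons in the germ line. Each of its 6 genes among the members was at or under 1.27 FPKM in every library. Of the 14 piRNA genes listed outside the 36, the highest were Tdrd7, Henmt1 and Piwil4. Their means in controls and deficient libraries were 14.3 and 14.1, 7.24 and 8.34, and 4.68 and 5.20 FPKM. The others of that list had group means of up to 1.88 FPKM. Piwil1, a PIWI protein that binds piRNAs, was at 0.477, 0.519 and 0.565 FPKM in controls and at 0.515, 0.444 and 1.27 FPKM in deficient libraries. Only cKO_265 left the range of 0.444 to 0.565 FPKM (log2 fold change 0.17 with SE 0.21, limma adjusted p = 0.759). Piwil2, a second PIWI protein, was at 0.788, 0.765 and 1.22 FPKM in controls and at 1.13, 1.13 and 0.611 FPKM in deficient libraries. Its groups overlapped fully (log2 fold change 0.02 with SE 0.19, limma adjusted p = 0.971). Tdrd9, a Tudor-domain helicase of the pathway, was at 0.821, 0.691 and 0.704 FPKM in controls and at 0.876, 0.429 and 0.551 FPKM in deficient libraries (log2 fold change -0.11, limma adjusted p = 0.812). Of the other Tudor proteins among the members, Tdrd1 averaged 0.524 FPKM (log2 fold change -0.05) and Tdrd6 0.266 FPKM. Mael, a protein of the germ granules, averaged 0.0866 FPKM. The summed level of the 6 genes was 3.11 ± 0.372 FPKM (SD, n = 3) in controls and 3.14 ± 0.155 FPKM (SD, n = 3) in deficient libraries.

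The genes of sperm chromatin were the most uneven between mice of 1 group, with a median within-group SD of 0.535 on the log2 scale against 0.185 for the piRNA genes. Protamines and transition proteins replace histones when the sperm nucleus is compacted. Prm1 was at 7.56, 25.4 and 3.82 FPKM in controls and at 1.12, 12.4 and 2.38 FPKM in deficient libraries. The highest library was a control and the second highest a deficient one (log2 fold change -1.17 with SE 0.75, limma adjusted p = 0.516). Leaving out 1 library moved the log2 fold change of Prm1 between -0.49 (without Con_261) and -1.94 (without cKO_263). Prm2 was at 0.698, 1.78 and 0.801 FPKM in controls and at 0.285, 1.12 and 0 FPKM in deficient libraries (log2 fold change -0.55 with SE 0.31, limma adjusted p = 0.455). Con_261 was highest and cKO_263 second for both genes, which lie 4234 bases apart on chromosome 16. Prm3, in the same cluster 5417 bases from Prm1 and not among the 36, was at 7.63 FPKM in Con_261 and at most 0.842 FPKM in the other libraries. Tnp2, 7676 bases from Prm1, did not share this order, with 5.02, 4.403 and 2.35 FPKM in controls and 4.09, 5.16 and 5.04 FPKM in deficient libraries (log2 fold change 0.27, limma adjusted p = 0.655). Tnp1, on chromosome 1, was listed at 0 in Con_261 and cKO_265 and reached 1.28 FPKM in Con_264 (log2 fold change -0.03).

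**Figure D4:**
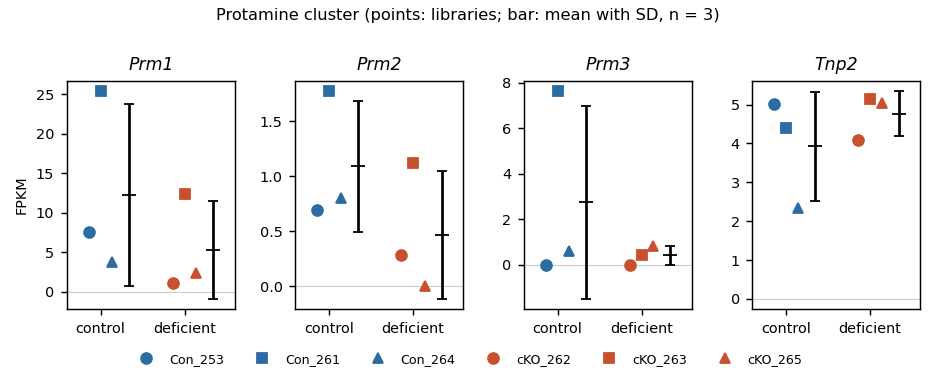
FPKM of Prm1, Prm2, Prm3 and Tnp2, neighbours on chromosome 16, in each library (points, marker shape for the mouse) with the group mean and SD (bars, n = 3). Con_261, the blue square, is highest for Prm1, Prm2 and Prm3, and cKO_263, the red square, is second for Prm1 and Prm2, whereas Tnp2 shows no such order.

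The start of Prm1 is shown as a contrast to the early genes. Within the germ line, this gene is known to be switched on only in spermatids. Its window has 1 CpG and none of the motifs searched. The search took exact letters only, so variants that differ by 1 base were not counted. The 250 bases before the start are chr16:10796824-10797073 on the minus strand, printed without capitals.
Prm1: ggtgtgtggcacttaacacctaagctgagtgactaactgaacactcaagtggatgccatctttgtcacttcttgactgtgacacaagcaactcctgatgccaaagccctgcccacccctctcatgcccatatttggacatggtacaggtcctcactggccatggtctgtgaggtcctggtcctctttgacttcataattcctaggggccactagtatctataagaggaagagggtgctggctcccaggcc

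Among the sperm tail and metabolism genes, Fabp9 and Odf2 had the highest levels of all 36. Fabp9 was at 23.2, 30.7 and 29.1 FPKM in controls and at 19.5, 24.3 and 42.3 FPKM in deficient libraries. The deficient libraries spread to both sides of the controls (log2 fold change -0.01 with SE 0.27, limma adjusted p = 0.989). A gene model named Gm37389 shares 344 of the 649 exon bases of Fabp9 on the same strand, so the value is uncertain. Odf2 encodes a protein of the outer dense fibres of the sperm tail and is also a centrosome protein of somatic cells. It was at 14.3, 14.2 and 15.7 FPKM in controls and at 13.8, 16.4 and 19.0 FPKM in deficient libraries (log2 fold change 0.13 with SE 0.16, limma p of 0.430 before and 0.749 after adjustment).

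Odf1, another outer dense fibre protein, was at 2.60, 1.61 and 3.45 FPKM in controls and at 1.25, 0.597 and 3.29 FPKM in deficient libraries. The deficient cKO_265 lay within the range of the controls and the 2 others were below them (log2 fold change -0.48 with SE 0.36, limma adjusted p = 0.582). It was -0.87 without cKO_265 and -0.16 without cKO_263. Ldhc, the lactate dehydrogenase of sperm, had group means of 2.49 ± 0.375 and 2.18 ± 0.348 FPKM (SD, n = 3 each; log2 fold change -0.13). Pgk2, the sperm form of a glycolytic kinase, averaged 0.145 FPKM and was listed at 0 in Con_253 and cKO_265.

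None of the 6 genes of sperm kinases, acrosome and surface passed the filter. Spata3, a testis gene, had the highest mean at 0.410 FPKM, with 0.254, 0.313 and 0.362 FPKM in controls and 0.177, 0 and 1.35 FPKM in deficient libraries. Adam2, a subunit of the sperm surface protein fertilin, was at 0.191, 0.261 and 0.217 FPKM in controls and at 0, 0.0879 and 0.107 FPKM in deficient libraries. All 3 control values of Adam2 were above all 3 deficient ones, at levels too low to be tested. The kinases Tssk1 and Tssk2 averaged 0.360 and 0.234 FPKM, and Tssk2 was at or under 0.0892 FPKM in Con_253 and all 3 deficient libraries. Crisp2 and Adam3, of the acrosome and the sperm surface, averaged 0.165 and 0.0838 FPKM.

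The zona pellucida is the glycoprotein coat of the egg, to which sperm bind. Zp2 was at 20.4, 14.1 and 20.9 FPKM in controls. It was at 8.24, 5.09 and 10.5 FPKM in deficient libraries. Each control was above each deficient library, with means of 18.5 ± 3.77 and 7.93 ± 2.71 FPKM (SD, n = 3). The log2 fold change was -1.15 (SE 0.26, 95% interval -1.74 to -0.57), with a limma p of 0.00173 before and 0.125 after adjustment over all tested genes. Zp2 was 218th of the 15720 tested genes by unadjusted p and did not pass the threshold. Without Con_253, the library with Y-linked RNA, the log2 fold change of Zp2 was -1.08, and without cKO_265 it was -1.36. With limma's arrayWeights, which gave Con_261 a weight of 8.72 and the other libraries 0.263 to 2.01, Zp2 and Pou5f1 passed (adjusted p = 0.00723 and 0.0203), in a fit that called 19.2% of all tested genes. In the other refits the adjusted p of Zp2 was 0.104 to 0.432.

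Zp1, which links zona filaments, was at 0.998, 0.706 and 0.591 FPKM in controls and at 0.501, 0.493 and 0.157 FPKM in deficient libraries. Here too each control was above each deficient library (log2 fold change -0.35 with SE 0.19, limma adjusted p = 0.424). Zp3, the partner of Zp2 in the zona filament, was at 6.82, 6.58 and 3.36 FPKM in controls and at 5.37, 4.88 and 2.78 FPKM in deficient libraries. Its groups overlapped through Con_264 (log2 fold change -0.29 with SE 0.29, limma adjusted p = 0.691). The summed level of the 3 genes was 24.8 ± 3.41 FPKM (SD, n = 3) in controls and 12.7 ± 1.94 FPKM (SD, n = 3) in deficient libraries, most of it Zp2. The ratio of Zp2 to Zp3 was 2.99, 2.15 and 6.22 in controls and 1.53, 1.04 and 3.77 in deficient libraries, so these ratios overlapped. The genes lie on different chromosomes, with Zp2 at chr7:120132361-120145290 on the minus strand and Zp3 at chr5:135980105-135988624 on the plus strand.

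**Figure D5:**
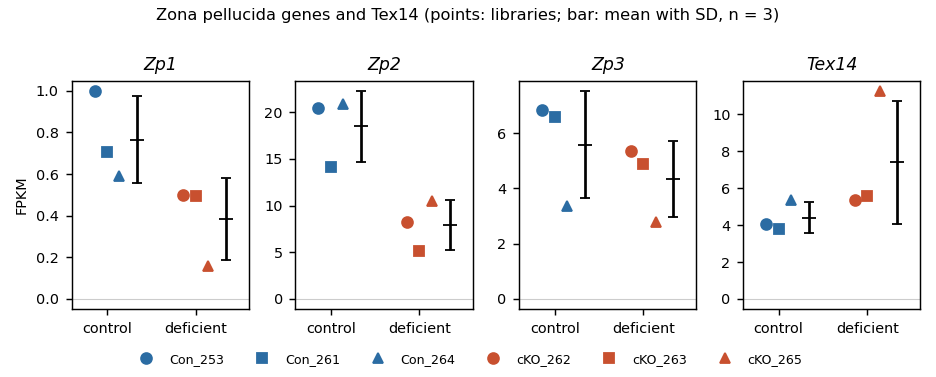
FPKM of Zp1, Zp2, Zp3 and the meiotic gene Tex14 in each library (points, marker shape for the mouse) with the group mean and SD (bars, n = 3). For Zp1 and Zp2 every control lies above every deficient library, for Tex14 the order is the opposite with cKO_265 at 11.2 FPKM, and for Zp3 the groups overlap.

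Of the tested genes around Zp2, only Lyrm1 had a higher mean log2 level in deficient libraries, and none passed the test. Tmem159, 11374 bases away, had a log2 fold change of -0.46 (limma p of 0.0261 before and 0.269 after adjustment). Each control of Tmem159 was above each deficient library, as for 11.9% of all tested genes. Anks4b, 28567 bases away on the other side, had -0.53 (limma adjusted p = 0.357), and Crym beyond it had -0.25. Lyrm1 and Dcun1d3, 215610 and 236615 bases away on the side of Tmem159, had 0.27 and -0.22. Markers of other cells and states were measured beside this. The 8 tuft-like markers summed to 127 to 155 FPKM in controls and 40.2 to 56.2 FPKM in deficient libraries, with 3 of the 8 called lower by limma. Thymocyte markers (10 of 12 tested, 0 called) summed to 49.6 to 78.96 and 37.7 to 44.0 FPKM, macrophage and dendritic cell markers (7 of 9 tested, 0 called) to 353 to 400 and 274 to 307 FPKM and endothelial markers (5 of 6 tested, 0 called) to 11.6 to 15.2 and 7.99 to 9.57 FPKM. Most of the macrophage and dendritic cell sum was the single gene Lyz2, at 344.6 ± 19.11 and 261.3 ± 17.5 FPKM (SD, n = 3), while Cd68 (19.3 and 18.7 FPKM) and Csf1r (5.21 and 4.63 FPKM) overlapped between groups and Flt3 had the higher mean in deficient libraries (2.71 and 3.46 FPKM). Ciliated-like markers (14 of 16 tested, 0 called) overlapped in their sums, at 76.0 to 84.6 and 55.8 to 80.8 FPKM. Of these 14, 2 had higher and 12 lower values, with a median log2 fold change of -0.32. The groups did not overlap for 4 that were lower, where 11.9% of all tested genes did this. The sums of B cell (38.8 to 51.7 and 40.8 to 56.0 FPKM), fibroblast (32.8 to 40.5 and 29.7 to 35.9 FPKM) and cortical epithelial markers (618 to 673 and 572 to 788 FPKM) overlapped as well, with 0 called. Most of the B cell sum was Cd79b (means 34.4 and 42.7 FPKM). Of the 5 B cell markers, 1 had higher and 4 lower values. Most of the cortical sum was Ctsl (means 300 and 273 FPKM) and Ccl25 (means 282 and 360 FPKM). No marker in these lists was at 0 in all libraries. Aire was at 399, 348 and 230 FPKM in controls and at 504, 456 and 317 FPKM in deficient libraries (log2 fold change 0.40, limma adjusted p = 0.5004), the opposite direction to Zp2. The part of these cells and states in the zona values was not tested.

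The 250 bases before the start of Zp3 are shown because it is the zona gene in the promoter table and 1 of the 2 late genes with an E-box, which the capitals mark. They are chr5:135979855-135980104 on the plus strand.
Zp3: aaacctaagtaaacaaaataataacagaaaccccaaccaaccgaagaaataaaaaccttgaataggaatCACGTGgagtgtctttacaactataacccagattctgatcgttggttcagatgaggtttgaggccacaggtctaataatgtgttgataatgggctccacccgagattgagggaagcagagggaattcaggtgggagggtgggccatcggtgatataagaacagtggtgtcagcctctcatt

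Across the 36 genes together, the summed level was 108 ± 9.99 FPKM (SD, n = 3) in controls and 95.6 ± 20.6 FPKM (SD, n = 3) in deficient libraries. As a share of all FPKM of a library this was 0.0185%, 0.0235% and 0.0225% in controls and 0.0129%, 0.0150% and 0.0182% in deficient libraries. The shares did not overlap, while the sums did, and the total FPKM that forms the denominator was itself higher in deficient libraries. At or above 1 FPKM were 11, 12 and 13 members in controls and 12, 13 and 15 in deficient libraries. The library cKO_265 had the highest value of 12 of the 36 genes, against 3 to 7 in the other libraries. Among the 19 tested members it was highest for 6, against 1 to 4 in the other libraries. The same library was highest for 24.1% of all tested genes, against 12.5% to 19.3% in the others.

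Further germ cell genes were taken from lists of 125 symbols, of which 120 were in the tables and 78 were tested. None of the 78 was called by limma, 6 were higher and 2 lower at an unadjusted p under 0.05, and the median log2 fold change was 0.05. The 8 of 78 are a smaller share than the 14.6% of all tested genes at that level. With limma's arrayWeights 12 of the 78 were called, again a smaller share than the 19.2% of all tested genes. Among 13 tested oocyte genes, Ooep, a maternal-effect protein of the egg, was at 44.4, 44.5 and 38.9 FPKM in controls and at 57.1, 68.5 and 89.5 FPKM in deficient libraries. Ooep was thus higher in every deficient library and above all 36 members in level (log2 fold change 0.72 with SE 0.18, limma adjusted p = 0.155). Padi6, another egg protein, had -0.38 (limma adjusted p = 0.390). The direction of Ooep is opposite to that of Zp2, although both are egg products.

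Among 22 tested spermatid and sperm genes, the kinase gene Tssk3 was at 1.55, 2.70 and 1.28 FPKM in controls and at 2.94, 6.77 and 4.90 FPKM in deficient libraries. The groups did not overlap (log2 fold change 1.03 with SE 0.29, limma adjusted p = 0.183), and Spag6, of the sperm axoneme, had -0.29 (limma adjusted p = 0.498). Of the 22, 11 had higher and 11 lower values, and the median log2 fold change was 0.02. Of 20 tested meiosis genes, 13 had higher and 7 lower values. Msh4, which stabilises crossover intermediates, was at 0.677, 1.04 and 1.11 FPKM in controls and at 1.74, 1.99 and 2.15 FPKM in deficient libraries (log2 fold change 0.61, limma adjusted p = 0.188). Syce1, of the central element between paired chromosomes, was at 2.79, 1.23 and 1.68 FPKM in controls and at 0.678, 0.265 and 0.932 FPKM in deficient libraries (log2 fold change -0.82, limma adjusted p = 0.205). These meiotic genes thus lay on both sides of the controls without passing the test.

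Of 10 tested piRNA genes, Ddx25, a testis helicase, was at 0.340, 0.300 and 0.262 FPKM in controls and at 0.388, 1.23 and 1.404 FPKM in deficient libraries (log2 fold change 0.59, limma adjusted p = 0.288). Pld6, a mitochondrial protein of piRNA processing, had a log2 fold change of -0.25 (limma adjusted p = 0.507). Of 13 tested germ cell and pluripotency genes, 6 had higher and 7 lower values. Dnd1, which protects transcripts in primordial germ cells, was at 5.95, 6.90 and 3.15 FPKM in controls and at 8.73, 10.9 and 6.41 FPKM in deficient libraries (log2 fold change 0.64, limma adjusted p = 0.339). Utf1, a chromatin factor of pluripotent cells, was at 63.2, 55.1 and 35.8 FPKM in controls and at 41.2, 38.1 and 9.46 FPKM in deficient libraries (log2 fold change -0.98, limma adjusted p = 0.402). Both genes had overlapping groups.

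The repressors of germ cell genes were measured at 18 of 19 above the filter, and none was called by limma. Of the 18, 8 had higher and 10 lower values, and the median log2 fold change was -0.12. The groups did not overlap for 5 that were lower (Pcgf6, Rnf2, E2f6, Hdac2 and Dnmt1) and 1 that was higher (Dnmt3b), where 11.9% and 9.59% of all tested genes did this. Rnf2, E2f6, Hdac2, Dnmt1 and Dnmt3b are named here after their values were seen, and their log2 fold changes were -0.38, -0.26, -0.36, -0.27 and 0.25. Pcgf6, the subunit that defines the Polycomb complex holding Max, Mga and E2f6, was at 4.59, 3.97 and 5.57 FPKM in controls and at 3.10, 2.54 and 2.45 FPKM in deficient libraries. Each control was above each deficient library (log2 fold change -0.62 with SE 0.18, limma adjusted p = 0.192). Uhrf1, which maintains DNA methylation, was at 20.3, 23.3 and 20.3 FPKM in controls and at 28.9, 30.2 and 23.0 FPKM in deficient libraries (log2 fold change 0.34, limma adjusted p = 0.360).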

How the data were processed

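RNA of sorted mTECs was isolated on columns and amplified as cDNA with a whole-transcriptome kit for single cells before Illumina libraries were made, per the labels' protocols. The authors deposited 1 table of FPKM per library, with 25025 rows each. Bowtie2 2.2.5, Cufflinks and build mm10 were used, per the submitters' processing notes. The Cufflinks version, annotation, strand and scaling between libraries are not given in the sources used here, and the depth is unknown.

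From these tables, 44 rows of 25 symbols turned into dates (0.0930% to 0.138% of a library's FPKM) were left out and the rows of a symbol were summed, which gave 20443 genes. The 15720 genes that averaged 0.5 FPKM or more in the 6 libraries entered limma 3.58.1 in R 4.3.3 as log2(FPKM + 1) (mean-variance trend, 2-sided, Benjamini-Hochberg over all tested genes, threshold 0.05), after the code was tested on simulated data. The pseudocount of 1 understates changes of low genes. An exact permutation test of 3 against 3 libraries cannot give a p below 0.1, so none is given for single values. List genes were matched by symbol, 10 of them by an older symbol.

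The members and lists were chosen with earlier results of these data known. Values in every library are given for members that passed, for members whose groups do not overlap, and in each stage for the 2 with the smallest unadjusted p and the 1 with the highest mean. In each list of other germ cell genes and repressors, the 2 with the smallest p are named. Tnp2, Zp3, Prm3, Hsf5 and the neighbours of Zp2 and Tex14 were added after their values were seen, to complete a locus or family. Syce2, Rec8, Syce3, Stag3 and Smc1b were also named after their values were seen, for comparison with Spo11. The same holds for Tdrd7, Henmt1 and Piwil4, for comparison with the piRNA members. Alternatives were quantile normalization, median centring, arrayWeights, single rows, a pseudocount of 0.1, a filter at 2 FPKM or none, leaving out each library and leaving out both Con_253 and cKO_265. Motifs were searched in RefSeq windows on both strands, and exon overlaps in a GENCODE annotation of GRCm38, the assembly called mm10.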

Additional observations from a re-analysis of the deposited data

How the results depend on the processing

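Of the 14 refits, limma's arrayWeights alone called members (2, Zp2 with a log2 fold change of -1.18 and Pou5f1 with 0.75), with 12 other germ cell genes and 3025 genes in all. The main fit called 0 members, 0 other germ cell genes and 12 genes in all. The count over all genes was 4 with no filter and 2 to 23 when 1 library was left out: 2 without Con_253, Con_261 or Con_264, 23 without cKO_262 and 19 without cKO_265. The log2 fold change of Zp2 stayed between -1.36 and -0.90 in every refit. The median over members was 0.05 with median centring, 0.03 with quantile normalization and 0.00 without cKO_262. Other signs turned for genes near 0: Fabp9 (0.069 with median centring, and -0.32 to 0.22 with 1 library left out), Piwil1 (-0.060 with both Con_253 and cKO_265 left out, and -0.039 to 0.29 with 1 left out), Piwil2 (-0.045 to 0.16 with 1 left out) and Odf2 (-1.25 by its highest row, where the row held reads that other rows held elsewhere). Values without 1 library ran from -1.94 to -0.49 for Prm1, -0.85 to -0.31 for Prm2, -0.87 to -0.16 for Odf1, -0.43 to -0.23 for Zp1 (under the filter without Con_253), 0.14 to 0.75 for Pou5f1, 0.27 to 0.74 for Tex14 and 0.04 to 0.38 for Spo11. The difference in members at or above 1 FPKM, 1.33 more in deficient libraries, was 0 with both Con_253 and cKO_265 left out, -2.67 at 0.5 FPKM and -1.33 at 2 FPKM. For the other results the cause was not tested. No paired analysis was possible because the groups share no replicate numbers. With 3 mice per group, amplified cDNA, no counts and 17 members too low to test, differences in these genes were not detectable unless large, and 0 calls do not show that they did not differ.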
